A study of Mus musculus with 15 samples.

Results

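Heat shock proteins and their partner chaperones were followed in nuclear RNA of mouse heart muscle cells. The members are the genes whose symbol starts with Hsp or Dnaj, or with Bag or Cct and a digit, and that had a mean of at least 10 reads over the 15 libraries. Hspg2 and Hspbap1, whose products are not chaperones, and pseudogene symbols were left out. This rule gave 79 members among the 16610 genes of the filtered count table and the 55536 genes counted in all. Another 9 genes matched by symbol but had fewer reads. Nearest to the limit were Dnajc5b below it, with a mean of 9.60 reads, and the member Cct8l1 above it, with 23.9. All 79 members passed the filter on low counts and were among the 17455 genes tested.

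The libraries were made from RNA of sorted Pcm1-positive nuclei of ventricular muscle, depleted of ribosomal RNA and read with strand information. Pcm1 is a centriolar satellite protein that lines the nuclear envelope of cardiomyocytes and is used to sort their nuclei. By label there were 4 Pgr_KO female, 4 Pgr_KO male, 3 Pgr_WT female and 4 Pgr_WT male libraries, written here as KO female 1 to WT male 4. Pgr is the gene of the progesterone receptor, which acts on transcription when bound by its hormone. The tissue label opens with 3-6 and no unit, so no age is given here, and the labels used here describe neither the knockout allele nor whether replicates are separate animals, and all p-values below therefore rest on the spread among libraries, part or all of which may be technical. Pgr reads ran against the genotype labels, with 6.10 to 12.5 CPM (normalised counts scaled to 1e6 per library) in the 8 libraries labelled Pgr_KO and 0 to 0.267 CPM in the 7 labelled Pgr_WT. Every genotype direction is therefore given by label. Replicate 2 of KO females, WT females and WT males also held reads of the other sex. Summed over 4 genes of the Y chromosome, KO female 2 and WT female 2 had 15.49 CPM each, against 0.226 to 1.28 CPM in the other 5 female libraries, and male libraries had 401 to 769 CPM. Xist, the RNA of the inactive X chromosome, was at 54.2 CPM in WT male 2, against 0.335 to 2.64 CPM in the other 7 male and 1126 to 1991 CPM in female libraries.

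Chaperones bind proteins that are unfolded or newly made and keep them from clumping. HSP70 proteins hold and release clients with ATP, J-domain proteins (the Dnaj genes) bring clients to them and start ATP hydrolysis, BAG proteins trigger nucleotide release, and HSP90 finishes the folding of kinases and steroid receptors, the progesterone receptor among them. Under heat or damaged proteins the factor HSF1 binds heat shock elements and raises a set of inducible chaperone genes within minutes, while constitutive relatives such as Hspa8 and Hsp90ab1 supply the resting cell. In heart muscle, small heat shock proteins and Bag3 also look after the contractile filaments.

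Total counts were 24.4 to 139.4 M per library, and the 10 cardiomyocyte markers summed to 47687 to 78019 CPM. The 6 libraries KO female 1 and 2, KO male 1 and 2, WT female 1 and WT male 1 had higher levels of markers of other cardiac cell types, with 868 to 2227 CPM over 13 fibroblast genes against 79.8 to 305 CPM in the other 9 libraries. In RNA of mixed nuclei, fewer cells of a type and less RNA per cell cannot be told apart. Both libraries with the highest inducible chaperone reads, KO male 4 and WT male 3, were among those 9 and held 139.4 and 49.2 M counts.

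The promoters of the inducible members were examined for the sequence that HSF1 binds, an array of GAA units in alternating orientation. RefSeq start sites on GRCm38.p6 were found for 65 members, and each window ran from 250 bases before a start to 50 after it. A heat shock element of 3 units, searched on both strands as GAANNTTCNNGAA or TTCNNGAANNTTC, lay in 0.603% of the 32851 windows of all genes. Among the members it lay at Hsph1, at Dnajb6, and in the windows of both Hspd1 and Hspe1, which start next to each other on opposite strands. A pair of units, GAANNTTC or TTCNNGAA, which every 3-unit match also holds, lay in windows of 17.0% of all 27025 genes, of 20 of the 65 members and of 7 of the 8 inducible members with an entry. A match is a string of letters and was not shown to be bound here. The windows below were chosen because Hspa1a and Hspa1b had the widest spread between libraries, Hsph1 and Hspe1 hold the 3-unit element and were over 2-fold higher in the same libraries, and Dnajb6 holds that element without being 2-fold higher. Capitals mark the 3-unit element at Hsph1, Hspe1 (where 2 matches overlap) and Dnajb6, and the unit pair at Hspa1a and Hspa1b. They lie at chr17:34972107-34972406 (Hspa1a, minus strand), chr17:34959189-34959488 (Hspa1b, minus strand), chr5:149636266-149636565 (Hsph1, minus strand), chr1:55087898-55088197 (Hspe1, plus strand) and chr5:29735648-29735947 (Dnajb6, plus strand).
Hspa1a: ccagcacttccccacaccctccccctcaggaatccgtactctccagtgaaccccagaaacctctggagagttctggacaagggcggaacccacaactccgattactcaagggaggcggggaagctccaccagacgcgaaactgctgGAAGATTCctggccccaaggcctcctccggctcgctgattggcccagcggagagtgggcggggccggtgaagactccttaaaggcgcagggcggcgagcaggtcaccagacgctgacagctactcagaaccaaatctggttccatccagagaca
Hspa1b: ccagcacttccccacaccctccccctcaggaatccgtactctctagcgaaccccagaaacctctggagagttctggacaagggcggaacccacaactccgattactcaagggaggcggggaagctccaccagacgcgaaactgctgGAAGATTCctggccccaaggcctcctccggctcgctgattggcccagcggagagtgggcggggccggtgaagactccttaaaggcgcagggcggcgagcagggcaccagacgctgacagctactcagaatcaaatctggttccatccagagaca
Hsph1: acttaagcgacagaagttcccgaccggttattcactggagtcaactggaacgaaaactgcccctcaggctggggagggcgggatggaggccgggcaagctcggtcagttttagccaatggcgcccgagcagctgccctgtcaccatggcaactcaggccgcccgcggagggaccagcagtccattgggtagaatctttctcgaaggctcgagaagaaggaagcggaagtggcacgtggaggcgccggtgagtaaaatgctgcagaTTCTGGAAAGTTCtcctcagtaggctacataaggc
Hspe1: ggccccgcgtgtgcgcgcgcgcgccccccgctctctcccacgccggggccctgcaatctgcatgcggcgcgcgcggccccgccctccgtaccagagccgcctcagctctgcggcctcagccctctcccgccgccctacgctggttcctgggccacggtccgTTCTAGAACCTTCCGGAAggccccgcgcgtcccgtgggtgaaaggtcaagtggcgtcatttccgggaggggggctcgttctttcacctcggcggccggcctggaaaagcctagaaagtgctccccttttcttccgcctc
Dnajb6: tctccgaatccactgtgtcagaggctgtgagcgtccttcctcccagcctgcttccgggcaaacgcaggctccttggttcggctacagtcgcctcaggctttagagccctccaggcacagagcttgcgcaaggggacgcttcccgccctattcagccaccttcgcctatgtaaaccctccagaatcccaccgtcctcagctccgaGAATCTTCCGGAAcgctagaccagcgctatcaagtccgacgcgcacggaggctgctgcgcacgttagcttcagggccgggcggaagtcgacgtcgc
The windows of Hspa1a and Hspa1b differed at 4 of their 300 bases. Their coding sequences were identical at 1918 of 1926 aligned bases (99.6%), with 1 identical run of 638 bases, so the split of reads between these neighbours, 9951 bases apart, is uncertain. Hspa1a and the constitutive Hspa8 were identical at 74.7% of aligned coding bases.

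Hspa1a (chr17:34969190-34972156, minus strand) and Hspa1b (chr17:34956436-34959238, minus strand) encode the stress-inducible cytosolic HSP70. Hspa1a was at 0.485, 0.637, 0.692 and 0.445 CPM in KO female libraries, at 0.449, 0.691, 0.865 and 12.3 CPM in KO male libraries, at 2.06, 0.0763 and 0.583 CPM in WT female libraries, and at 0.871, 0.261, 22.6 and 0.313 CPM in WT male libraries. KO male 4 and WT male 3 thus stood 18.8-fold and 34.4-fold above the median of the other 14 libraries (on CPM + 0.05), and no other library was above 2.06 CPM. The reads behind these values were 1690 in KO male 4 and 959 in WT male 3, and 2 to 58 in the other 13, where 3 reads equal 0.0324 to 0.117 CPM. Hspa1b followed with 10.3 CPM in KO male 4, 24.9 CPM in WT male 3 and 0.140 to 1.71 CPM elsewhere. The next highest library for both genes was WT female 1. Hspa1l, which lies 546 bases from Hspa1a on the other strand and is known for its expression in testis, was at 3.97 CPM in KO male 4, 4.53 CPM in WT male 3 and 0.848 to 2.39 CPM elsewhere.

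**Figure D1:**
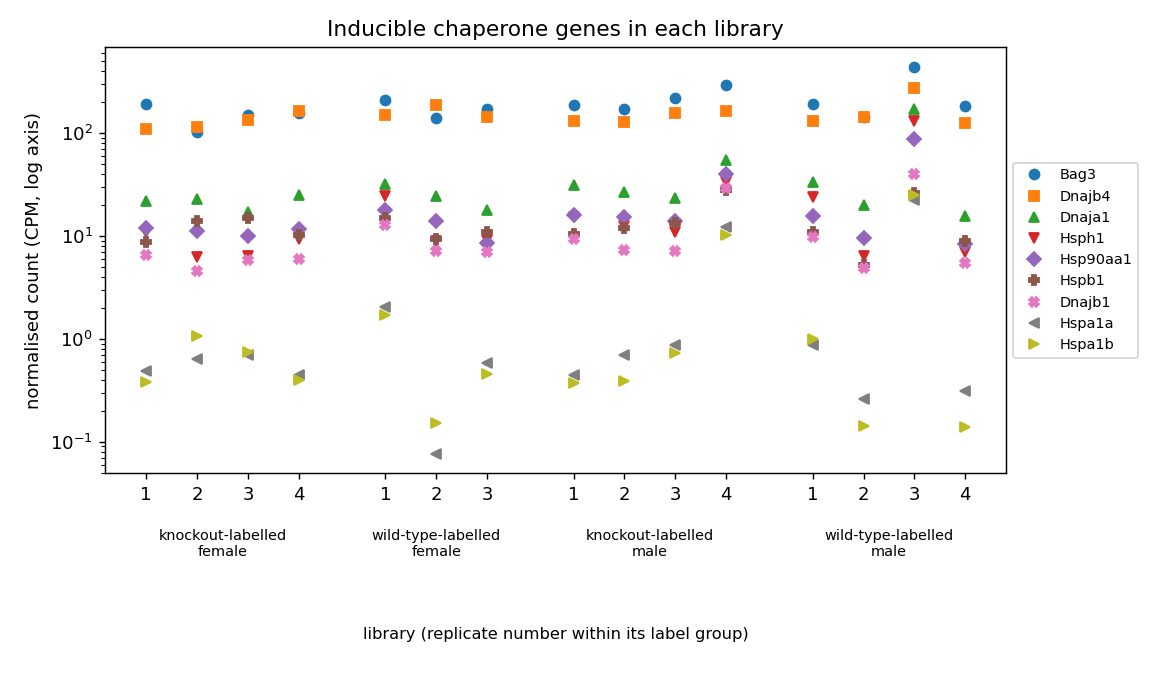
Normalised counts (CPM, log axis) of the 9 inducible members, 1 marker per gene, in each of the 15 libraries grouped by label. Hspa1a and Hspa1b reach 12.3 and 10.3 CPM in KO male 4 and 22.6 and 24.9 CPM in WT male 3, and at most 2.06 CPM in any other library.

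The other inducible members were high in the same libraries. Hsph1 (chr5:149614287-149636376, minus strand), the HSP110 that exchanges nucleotides on HSP70, was at 33.8 CPM in KO male 4, 132 CPM in WT male 3 and 6.26 to 24.5 CPM in the other 13. Hsp90aa1, the inducible cytosolic HSP90, was at 40.2 CPM, 88.0 CPM and 8.37 to 17.9 CPM in the same order. Dnaja1, a J-domain partner of HSP70, was at 55.3, 172 and 15.7 to 33.8 CPM. In none of these genes did the 13 other libraries reach the level of KO male 4 or WT male 3.

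Dnajb1, the main J-domain partner of inducible HSP70, was at 29.3 CPM in KO male 4, 40.6 CPM in WT male 3 and 4.62 to 12.8 CPM in the others. Hspb1, the small heat shock protein HSP27 of humans, was nearly level between them, at 27.8 and 26.6 CPM, against 5.22 to 15.01 CPM. Bag3 (chr7:128523616-128546981, plus strand), which links HSP70 and Hspb8 to autophagy in muscle, was already abundant, at 294 CPM in KO male 4, 445 CPM in WT male 3 and 104 to 223 CPM elsewhere. Dnajb4, a further J-domain protein, was at 166, 277 and 109 to 189 CPM, so that KO male 4 did not stand out. The 9 genes together summed to 669 CPM in KO male 4, 1228 CPM in WT male 3 and 279 to 468 CPM in the other 13 libraries.

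Against the median of the other 14 libraries, 14 of 79 members were at least 2-fold higher in WT male 3, where 1.05% of all tested genes were. In KO male 4 the count was 9 of 79, against 0.985% of all tested genes. Of the 9 inducible members, 7 were among these in KO male 4 and 8 in WT male 3, all but Dnajb4 (1.98-fold). In KO female libraries 1 to 4 the counts were 2, 4, 0 and 0 members, against 11.2%, 15%, 1.03% and 0.59% of all genes. In KO male libraries 1 to 3 they were 2, 2 and 0, against 11.5%, 12.6% and 0.355%. In WT female libraries they were 5, 3 and 0, against 13.1%, 1.64% and 0.636%, and in WT males 1, 2 and 4 they were 4, 0 and 0, against 13.6%, 2.37% and 0.43%. Outside KO male 4 and WT male 3, inducible members were among these in WT female 1 (Hsph1, Hspa1a and Hspa1b), WT male 1 (Hsph1 and Hspa1b) and KO female 2 (Hspa1b). WT male 3 was the library with the highest level for 34 members, and for 10.9% of all tested genes. The inducible list was drawn up with these data already known in part, so its counts are a description.

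**Figure D2:**
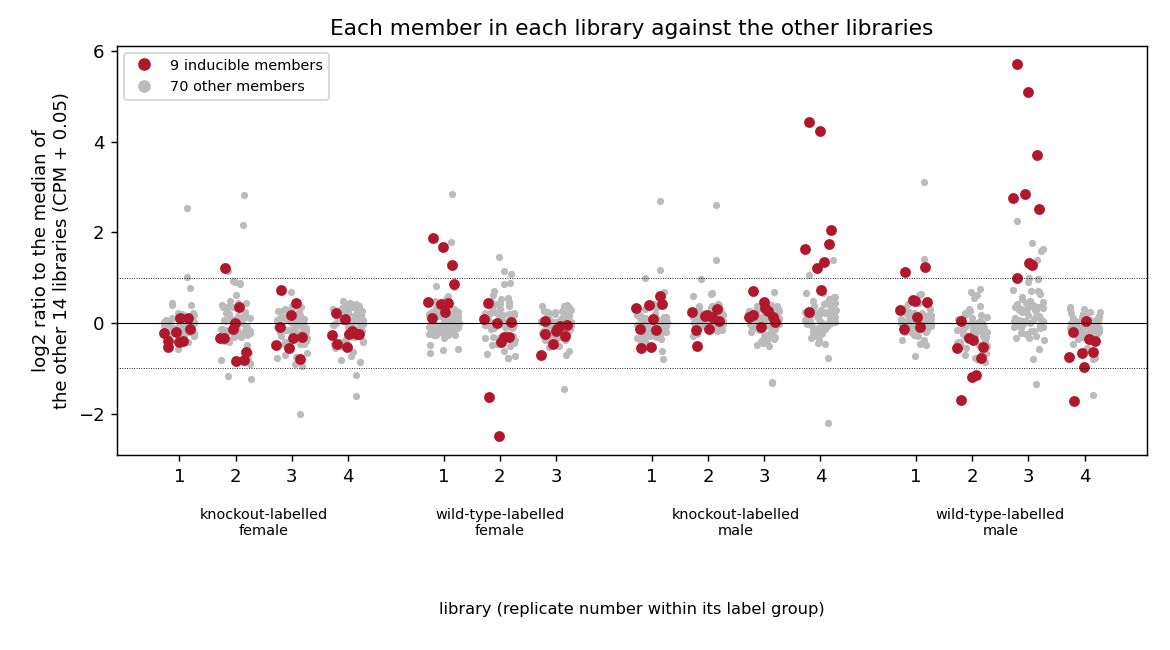
Log2 ratio of each member's CPM + 0.05 to the median of the other 14 libraries, for 9 inducible (red) and 70 other members (grey), with dotted lines at 2-fold. Red points stand above the dotted line for 7 genes in KO male 4 and for 8 in WT male 3, and in the 6 libraries with high markers of other cell types the grey points above it are mostly Hspa12b and Dnajc6.

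Members outside the inducible list were also high in WT male 3, and fewer of them in KO male 4. Hspe1 and Hspd1, the co-chaperonin and chaperonin that fold proteins inside mitochondria, share the heat shock element printed above. Hspe1 was at 15.95 CPM in KO male 4, 36.4 CPM in WT male 3 and 5.86 to 9.61 CPM elsewhere, and Hspd1 at 49.2, 112 and 30.7 to 43.1 CPM. Their gene bodies overlap by 112 bases on opposite strands, and the reads were made with a directional kit. Hspa9, the HSP70 of mitochondria, was at 107, 150 and 83.2 to 113 CPM, so that only WT male 3 lay outside the rest.

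The chaperonin TRiC (the Cct genes), a ring that folds actin and tubulin, was above the median of the other libraries for 8 of 8 members in both KO male 4 and WT male 3, with median log2 ratios of 0.24 and 0.70. Of all 17455 tested genes, 8655 and 8407 were above it there. KO male 2 was also above it for 8 of 8, with a median of 0.07. Cct7 was at 21.4 CPM in KO male 4, 54.7 CPM in WT male 3 and 12.9 to 18.5 CPM elsewhere. Cct2, Cct3 and Cct5 were also above the other 13 libraries in both, Cct4, Cct6a and Cct8 in WT male 3 alone, and Cct6b in neither. Cct4 was at 29.0 CPM in KO male 4, 47.1 CPM in WT male 3 and 21.0 to 31.1 CPM elsewhere. Dnaja4, a J-domain protein abundant in muscle, was at 108, 196 and 49.8 to 86.4 CPM, and Hspa4, the constitutive relative of Hsph1, at 95.8, 171 and 73.8 to 102 CPM. Dnajb6, whose window holds the 3-unit element, was at 138 CPM in KO male 4, 170 CPM in WT male 3 and 115 to 149 CPM in the others.

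Of the 14 members at least 2-fold higher in WT male 3, 13 had a promoter entry and 9 of these held the unit pair. Cct7, Dnajb1, Hspa1l and Hspa4 had no match in their windows. In KO male 4 the pair was held by 6 of the 8 such members with an entry. The pair was also held by members that were not 2-fold higher in either library, such as Cct2, Hspb6 and Hspb8.

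Co-chaperones that the symbol rule does not take were listed separately, 42 of them. In WT male 3, 2 were at least 2-fold lower (10.1% of all tested genes) and 8 at least 2-fold higher (1.05%). Those 8 are given next. Stip1, which joins HSP70 to HSP90, was at 23.3 CPM in KO male 4, 59.0 CPM in WT male 3 and 7.87 to 17.6 CPM elsewhere. Chordc1, an HSP90 partner, was at 54.8, 169 and 40.5 to 75.4 CPM, and Ahsa2, an activator of HSP90 ATPase, at 30.6, 71.5 and 19.7 to 27.97 CPM. The others were St13, Ahsa1, Ptges3, Serpinh1 and Unc45b, at 2.15-fold to 3.28-fold. Only Cryab, the muscle small heat shock protein alpha-B crystallin, was 2-fold higher in KO male 4 (0.985% of all tested genes). It was at 113 CPM there, 103 CPM in WT male 3 and 34.3 to 75.1 CPM elsewhere.

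The RNA of the heat shock factors was measured too. Hsf1 was at 38.3 CPM in KO male 4, 32.9 CPM in WT male 3 and 23.5 to 40.3 CPM in the others. Of 5 genes listed (Hsf1, Hsf2, Hsf4, Hsf5 and Hsbp1, the last not itself a factor) 0 were 2-fold higher in either library. Immediate early genes, which answer many stimuli within minutes, were measured beside them. Their list of 25 measured genes summed to 252 CPM in KO male 4, 241 CPM in WT male 3 and 106 to 227 CPM in the others. At least 2-fold higher were 5 of the 25 in KO male 4 and 3 in WT male 3, against 0.985% and 1.05% of all tested genes. In WT male 3 another 3 were at least 2-fold lower (10.1% of all tested genes), and in KO male 4 another 1 was (4.47%). Counts of at least 5 were also found in libraries with high markers of other cell types, where many more of all tested genes were 2-fold higher. They were 9 in KO female 2, 8 in KO male 1 and 6 in WT female 1, against 15%, 11.5% and 13.1% of all tested genes. KO male 2 and WT male 1 had 5 each, against 12.6% and 13.6%. Beside such shares these counts cannot be set directly against those of KO male 4 and WT male 3. KO male 3, with low markers and 0 inducible members 2-fold higher, had 3 of the 25, against 0.355%. Nr4a3, a nuclear receptor of this kind, was at 17.4, 42.6 and 0.307 to 16.02 CPM, and Fos at 15.5, 7.14 and 0.320 to 4.30 CPM. Their part in the chaperone levels was not tested.

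Ratios of inducible to constitutive relatives within a library need no scaling between libraries. Reads of Hspa1a plus Hspa1b were 28.4% of the reads of Hspa8 in KO male 4, 61.6% in WT male 3 and 0.393% to 5.08% in the other 13. Hsp90aa1 had 51.9% of the reads of Hsp90ab1 in KO male 4, 110% in WT male 3 and 20.2% to 34.4% elsewhere, so that the inducible form passed the constitutive one in a single library. Dnaja1 against Dnaja2 gave 52.1%, 138% and 17.1% to 40.4%, and Hsph1 against Hspa4 gave 35.3%, 77.5% and 7.92% to 31.6%. In all 4 pairs WT male 3 was highest and KO male 4 second. The denominators varied less. Hsp90ab1 was at 77.5 CPM in KO male 4, 79.8 CPM in WT male 3 and 29.7 to 76.3 CPM elsewhere, and Hspa8 at 79.7, 77.2 and 32.4 to 80.7 CPM. The ratios compare reads per gene body and not molecules, since the genes differ in length and introns were counted.

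**Figure D3:**
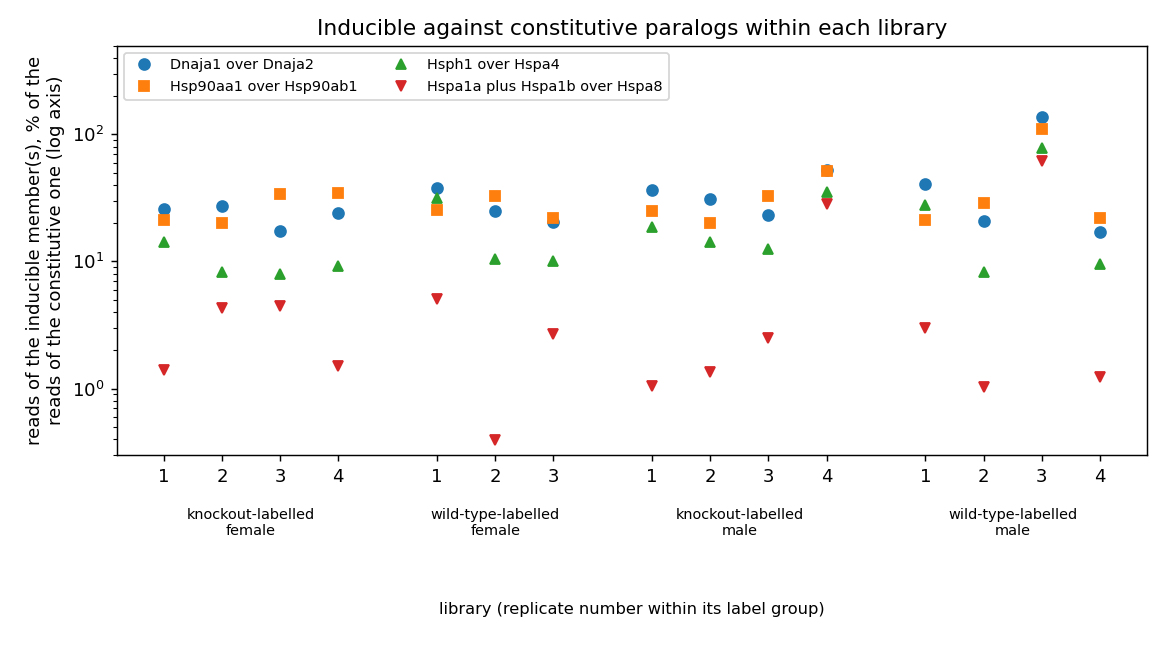
Reads of the inducible member as a percentage of the reads of its constitutive relative (log axis) in each library, 1 marker per pair, for 4 pairs of genes. WT male 3 is highest in every pair (61.6% to 138%) and KO male 4 second (28.4% to 52.1%).

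KO male 4 and WT male 3 carry different genotype labels, and each stands on 1 side of the male comparison. In males, KO minus WT, Hspa1a averaged 3.58 ± 5.83 CPM in KO and 6.01 ± 11.1 CPM in WT libraries (SD, n = 4 each), with a log2 fold change of -0.73 ± 1.40 (SE, edgeR's quasi-likelihood test, Benjamini-Hochberg adjusted p = 0.999). Without WT male 3 the log2 fold change was 2.90, without KO male 4 it was -3.14, and without both it was 0.47. Hsph1 had -1.22 ± 0.82, with 0.54 without WT male 3, -1.71 without KO male 4 and 0.044 without both. Hsp90aa1 had -0.50 ± 0.65, with 0.93, -0.997 and 0.42 in the same order, and Dnaja1 -0.82 ± 0.62, with 0.56, -1.15 and 0.21. The direction of each of these genes turned with which of the 2 libraries was left out.

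The 4 ratios were compared between KO and WT labels in each sex and between the sexes under each label, 16 tests in all. None passed, with adjusted p of 0.914 to 0.943 by two-sided exact permutation tests over 3 or 4 libraries a group, whose smallest attainable p is 0.0286. After adjustment over 16 tests a single ratio at that p could not have passed. The tests therefore do not show that the groups are alike. The log2 ratio of Hspa1a plus Hspa1b to Hspa8 averaged -4.97 ± 2.17 in KO and -4.66 ± 2.72 in WT male libraries (SD, n = 4 each). In females it averaged -5.30 ± 0.91 in KO (n = 4) and -5.79 ± 1.86 in WT libraries (n = 3). The nearest to a difference was Hsph1 over Hspa4 in KO libraries, at -3.38 ± 0.39 in females and -2.44 ± 0.67 in males (exact permutation p = 0.0857, adjusted p = 0.914). Paired by replicate number, the KO female library was lower than the KO male library in 4 of 4 pairs for Hsph1 over Hspa4 and for Dnaja1 over Dnaja2. The two-sided exact sign-flip test gave p = 0.125 for each, the smallest that 4 pairs allow (adjusted p = 0.75 over 12 paired tests).

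Between the genotype labels no member was called in females, where 0 of the 17455 tested genes were (0.0%), at an adjusted p below 0.05 by edgeR. At an unadjusted p below 0.05, 1 member stood among 1.74% of all genes. That was Hspb6, a small heat shock protein of muscle, at 15.99, 9.36, 9.66 and 12.0 CPM in KO female libraries against 13.9, 16.1 and 21.0 CPM in WT female libraries. The 2 groups overlapped, and the log2 fold change was -0.53 ± 0.24 (SE, edgeR, adjusted p = 1). Of the 79 members 56 had a log2 fold change below 0, as did 44.6% of all genes, with a median of -0.10 over the members and 0.025 over all tested genes. DESeq2 called 0 members and 3 genes in all (0.0172%) in the same comparison.

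Other members with small p in females were Cct6b, the testis form of a TRiC subunit (log2 fold change 0.43 ± 0.22), Hspb11, a ciliary transport protein also called Ift25 (0.42 ± 0.22), and Dnajb5, a muscle J-domain protein (-0.43 ± 0.28), each with an adjusted p of 1 by edgeR. Dnajb1 was the only member whose female groups did not overlap, at 6.59, 4.62, 5.81 and 6.04 CPM in KO and 12.8, 7.17 and 6.96 CPM in WT libraries, where 1.01% of all genes were lower without overlap and 0.905% higher. By class, 7 of 8 TRiC members, 9 of 11 HSP70 and HSP110 members, 8 of 10 members of the endoplasmic reticulum, 7 of 8 of mitochondria, 5 of 6 small heat shock proteins, 4 of 6 BAG members and both cytosolic HSP90 members were lower in KO females. The largest class, the other J-domain proteins, was split, with 13 higher and 12 lower. None of these passed the test, and the medians of the classes lay between -0.26 and 0.024.

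In males, KO minus WT, no member was called among 0.0115% of all genes (2 genes) by edgeR, 0 of the 79 members had an unadjusted p below 0.05 (1.42% of all genes did), and DESeq2 called no member among 4 genes (0.0229%). No member had male groups without overlap, where 0.756% of all genes were higher and 0.842% lower. Log2 fold changes were below 0 for 41 members and for 47.0% of all genes. Without KO male 4 and WT male 3 they were below 0 for 21 members, and above 0 for 51.0% of all genes. Hspa8 (chr9:40800984-40810087, plus strand), the constitutive HSP70 of the cytosol, was at 79.0, 80.7, 63.6 and 79.7 CPM in KO males against 62.4, 39.1, 77.2 and 36.6 CPM in WT males. All 4 KO libraries were above 3 of the 4 WT libraries, with a log2 fold change of 0.49 ± 0.27 (SE, edgeR, adjusted p = 0.999). Hspa12a, a distant HSP70 relative of unclear function, had 0.56 ± 0.28 and was at 21.9, 23.2, 36.5 and 24.0 CPM in KO males against 20.1, 13.1, 15.5 and 23.1 CPM in WT males. Without KO male 3 that of Hspa12a was 0.36. Hspa4l and Dnajb9 had -0.37 ± 0.23 and -0.60 ± 0.41, and without WT male 3 that of Hspa4l was -0.067.

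Small heat shock proteins lay on opposite sides in the sexes without passing a test. All 6 of them (Hspb1, Hspb2, Hspb3, Hspb6, Hspb7 and Hspb8) were higher in KO than WT males, with a median log2 fold change of 0.18, while 5 of 6 were lower in KO than WT females, with a median of -0.26. Of all genes 53.0% were higher in KO males and 44.6% lower in KO females. Against the other libraries, the class had a median log2 ratio of -0.47 in WT male 2 and 0.52 in KO male 4. It was 0.06 to 0.20 in the other WT males and -0.07 to 0.25 in the other KO males. In KO female 2 it was -0.65, against -0.35 to 0.05 in the other KO females and -0.27 to 0.14 in WT females. WT male 2 and KO female 2 held reads of the other sex. The test of the difference between the sexes called 0 members and 0 of all genes (0.0%) by edgeR, and 1 member had an unadjusted p below 0.05 (2.49% of all genes). Hspb6 had a difference of -0.83 ± 0.32 on the log2 scale (SE, edgeR, adjusted p = 1). Hspa8 (-0.75 ± 0.40), Dnajb5 (-0.70 ± 0.38) and Cct6b (0.50 ± 0.30) came next. Of the members 42 were below 0, as were 47.8% of all genes. Without the 3 libraries that hold both kinds of sex-linked reads 34 were, while 48.9% of all genes were above 0. The median over the members was then 0.081, against -0.013 with those libraries. By DESeq2 0 members and 1 gene (0.00573%) were called for this difference. Its unadjusted p was below 0.05 for 3 members and for 622 of all 17455 genes.

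**Figure D4:**
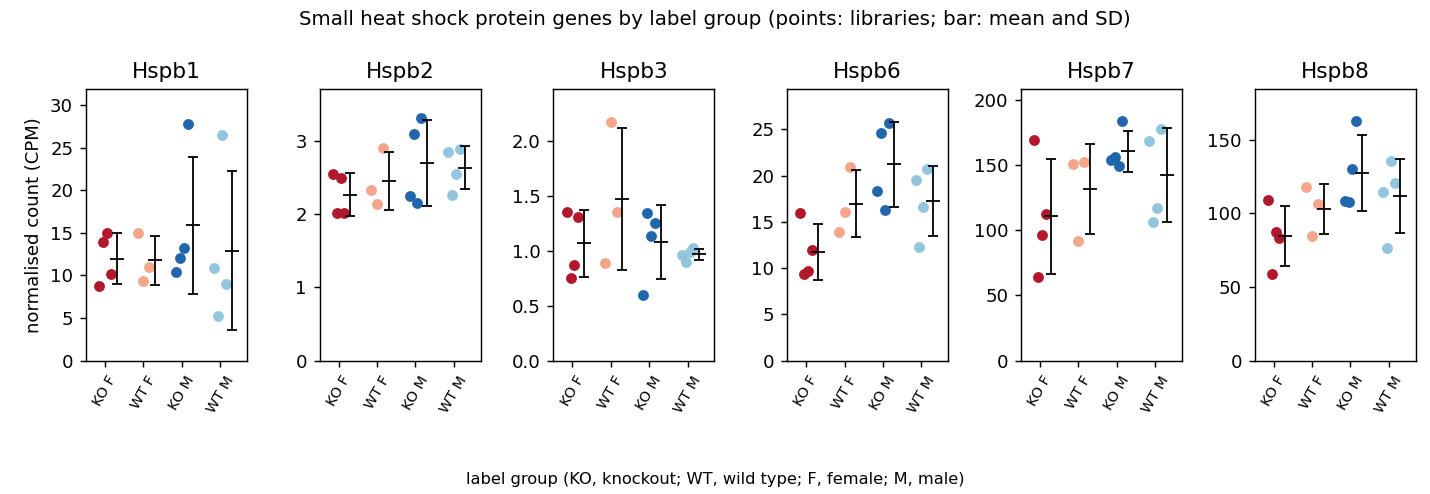
Normalised counts (CPM) of the 6 small heat shock protein genes by label group (KO or WT, F female, M male), with each library as a point and the mean and SD beside it (n = 4, 3, 4 and 4 from left to right). Hspb6 is at 9.36 to 15.99 CPM in KO females and 16.3 to 25.6 CPM in KO males, while the WT groups overlap.

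The sexes were compared under each label. Hspb6 (chr7:30552178-30555443, plus strand) was at 15.99, 9.36, 9.66 and 12.0 CPM in KO females against 18.4, 24.6, 16.3 and 25.6 CPM in KO males, so that the groups did not overlap. Its log2 fold change was -0.85 ± 0.22 (SE, edgeR, adjusted p = 0.616). DESeq2 called it, at -0.86 with an adjusted p of 0.0350, as 1 of 57 called genes (0.327% of all), whereas edgeR called 4 genes (0.0229%) and limma-voom 10, with no member among them. Hspb8, the partner of Bag3, had -0.59 ± 0.21 (adjusted p = 0.757) and Hspa1l -1.19 ± 0.45.

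At an unadjusted p below 0.05, 7 members stood in the KO comparison of the sexes, where 6.37% of all genes did, and 56 of 79 members were lower in females, as 48.0% of all genes were. The count of 7, like that of 1112 over all tested genes, depends on single libraries. By edgeR it was 1 without KO male 4 (551 of all 17394 tested genes) and 3 without KO female 2 (616 of 17333). It was 4 without KO female 3 (644 of 17484) or KO male 3 (800 of 17410). Without KO female 1 it was 11 (2510 of 17459), and without WT male 3 it was 14 (1082 of 17481). Leaving out both KO male 4 and WT male 3 gave 3 (535 of 17363). With the replicate number as a block it was 12 (2279 of 17455). Without the 3 libraries that hold both kinds of sex-linked reads it was 4 (712 of 17698). Female and male KO libraries did not overlap for 7 members (Bag2, Dnajb1, Hsp90aa1, Hspa1l, Hspa8, Hspb6 and Hsph1), each lower in females, while 1.92% of all genes were lower and 1.26% higher without overlap. Hspa8 was at 61.8, 39.9, 32.4 and 56.3 CPM in KO females against 79.0, 80.7, 63.6 and 79.7 CPM in KO males, with a log2 fold change of -0.67 ± 0.27. By edgeR with 1 library left out, the log2 fold change ran from -1.04 to -0.75 for Hspb6 and from -0.82 to -0.53 for Hspa8.

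Whether the sex comparison differs between the labels is the same test as the one given above, which called no member. Under the WT label, females minus males, no member was called among 0 genes (0.0%) by edgeR and 14 genes (0.0802%) by DESeq2, and 0 members had an unadjusted p below 0.05 (2.09% of all genes). Hspa12a had 0.64 ± 0.30, Cct6b -0.46 ± 0.22, Hspb3 0.60 ± 0.33 and Dnaja1 -1.28 ± 0.70. That of Dnaja1 was 0.11 without WT male 3, that of Hspa12a 0.31 without WT female 1, and that of Hspb3 0.23 without WT female 2. Of the 79 members 49 were lower in WT females than WT males (50.7% of all genes). Without KO male 4 and WT male 3, 20 were lower, while 52.4% of all genes were higher. Without the 3 libraries that hold both kinds of sex-linked reads 57 were, while 46.2% of all genes were higher. By edgeR 3 members then had an unadjusted p below 0.05, as did 326 of all 17698 genes. Dnajc27, a small GTPase with a J domain, was at 13.8, 13.9 and 12.9 CPM in WT females against 15.4, 13.9, 14.3 and 15.3 CPM in WT males, the only member lower without overlap (1.89% of all genes, with 1.06% higher).

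Chaperones of the endoplasmic reticulum were described by library, with no test. Dnajb9, a J-domain partner of BiP that the unfolded protein response raises, was at 6.65, 16.3, 13.98 and 11.6 CPM in KO females, 6.84, 9.22, 7.39 and 7.71 CPM in KO males, 6.64, 24.2 and 8.27 CPM in WT females, and 5.98, 14.2, 16.4 and 10.8 CPM in WT males. WT female 2 was highest, at 2.76-fold the median of the others. Hspa5 (chr2:34771970-34777547, plus strand), which encodes BiP, was at 161 CPM in WT female 2 and 57.9 to 117 CPM in the other 14 libraries. Hsp90b1, the HSP90 of this compartment, was at 145 CPM there and 66.0 to 109 CPM elsewhere, and Hspa13 at 14.8 and 4.96 to 12.3 CPM. KO male 4 was below the median of the others for 8 of the 10 genes of this class, and WT male 3 above it for 9 of 10 with none 2-fold higher. KO female 2, KO female 4 (median log2 ratio 0.15) and WT female 2 were above it for 8, 9 and 9 of 10, and KO male 1 for 1 of 10. In the libraries named, 7807 (WT female 2) to 9525 (KO male 1) of the 17455 tested genes were above it. The median log2 ratio of the class was largest in WT female 2 (0.46) and KO female 2 (0.36). The same libraries had the highest endothelial marker sums, 2405 and 2555 CPM, against 1032 to 1942 CPM in the other 13, and both held reads of the other sex. WT female 2 was, however, among the 9 libraries with low markers of other cell types. In it 14 of the 15 endothelial markers were below all 6 libraries with high markers, so its high sum came from the 1 remaining marker. The part of endothelial RNA and of the reads of the other sex in the result was not tested.

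**Figure D5:**
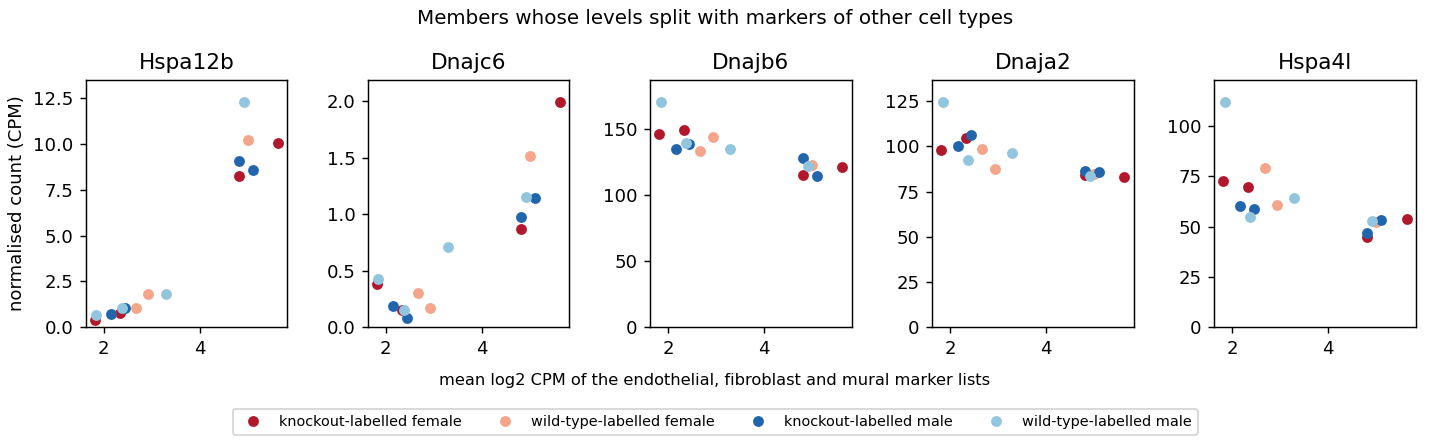
Normalised counts (CPM) of the 5 members whose levels did not overlap between the 6 libraries with high and the 9 with low levels of other cell types' markers, against the mean log2 CPM of the endothelial, fibroblast and mural marker lists. Hspa12b is at 8.23 to 12.3 CPM in the 6 libraries on the right and 0.410 to 1.80 CPM in the 9 on the left, with all label groups on both sides.

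Some members moved with markers of other cell types. Hspa12b (chr2:131127280-131146321, plus strand), an HSP70 relative known from endothelial cells, was at 8.23 to 12.3 CPM in the 6 libraries with high marker levels and 0.410 to 1.80 CPM in the other 9. Dnajc6, the neuronal auxilin that uncoats clathrin vesicles, was at 0.869 to 1.99 and 0.0802 to 0.711 CPM. No other member was higher without overlap, while 13.6% of all genes were. Dnaja2, Dnajb6 and Hspa4l were lower without overlap (1.08% of all genes), and Dnaja2, the constitutive relative of Dnaja1, was at 83.3 to 86.2 CPM in the 6 libraries and 87.3 to 124 CPM in the 9.

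Of the 15 endothelial markers 14 were higher without overlap in the 6 libraries, as were 13 of 13 fibroblast, 5 of 9 mural and 4 of 10 leukocyte markers, while 1 mural and 1 of 10 cardiomyocyte markers were lower without overlap. The endothelial list summed to 1308 to 2555 CPM in the 6 and 1032 to 2405 CPM in the 9 libraries, the mural list to 550 to 661 and 582 to 777 CPM, and the leukocyte list to 44.7 to 109 and 8.55 to 35.3 CPM. No endothelial, fibroblast or mural marker was at 0 in any library, and the leukocyte gene Itgam was at 0 in all of them. The part of these cells in the 5 members was not tested.

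Levels between members are compared per length of the gene body, introns included. Hspb7, a small heat shock protein of heart and skeletal muscle, was highest at 30.1 CPM per kb, followed by Hspa5 at 16.2 CPM per kb. Hsp90ab1, the constitutive cytosolic HSP90, came next at 9.89, with Bag3 at 8.48 and Hspb1 at 8.04 CPM per kb. Hspb7, at 64.4 to 183 CPM, was lowest in KO female 2, whose cardiomyocyte marker sum of 47687 CPM was also the lowest, and the part of that in the result was not tested. Hspa1a and Hspa1b averaged 0.974 and 1.02 CPM per kb, mostly from 2 libraries.

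Most members varied little. Over the 74 members with a mean of at least 100 reads, the SD of log2 CPM + 0.05 across the 15 libraries had a median of 0.89 for the 9 inducible members and 0.26 for the other 65, beside 0.25 for the 11726 genes with that many reads. The steadiest were Dnajc18, a membrane J-domain protein (SD 0.083, 15.1 to 18.2 CPM), Dnajc2, a ribosome-bound J-domain protein (0.097, 8.35 to 10.2 CPM), and Dnajc8, a J-domain protein of the splicing machinery (0.10, 13.5 to 18.1 CPM). Dnajc21, which serves ribosome assembly, and Dnajc16 had SDs of 0.11 and 0.13. The widest were Hspa1b (2.00), Hspa1a (1.93), Hspa12b (1.74), Hsph1 (1.18) and Dnajb1 (0.90).

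Among the 47 listed co-chaperones and heat shock factors, Hsbp1 included, none was called between the genotype labels by edgeR. In females, KO minus WT, 42 co-chaperones included 9 higher and 33 lower, and the smallest unadjusted p belonged to Sgta (log2 fold change -0.25 ± 0.13), Fkbp4 (-0.31 ± 0.22) and Unc45b (-0.44 ± 0.37), which serve membrane protein insertion, steroid receptors and myosin folding. In males 21 were higher and 21 lower, and Ahsa2 (-0.57), Chordc1 (-0.66) and Hsf2 (-0.35), a second heat shock factor, had the smallest p. Without WT male 3 the log2 fold changes of Ahsa2 and Chordc1 were 0.012 and 0.024.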

How the data were processed

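The values are counts deposited by the authors, whole reads per gene and library, not normalised. Reads were aligned with STAR 2.5.3a and counted with featureCounts 1.5.0 on GRCm38 (mm10), per the submitters' processing notes. Reads were summed over whole gene bodies, since each deposited gene length equals end minus start plus 1, so introns count and nuclear pre-mRNA is included. Totals were 24.4 to 139.4 M counts per library, and 3 reads, the limit a count of 0 allows, equal 0.0219 to 0.117 CPM (counting error only).

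The members and gene lists were chosen with earlier results of these data known. edgeR 4.0.16 (R 4.3.3) was fitted to all 15 libraries with 1 mean per label group, TMM scaling, filterByExpr and a robust quasi-likelihood test, and p-values were adjusted by Benjamini-Hochberg over all 17455 genes. A gene was called at an adjusted p below 0.05. CPM use the TMM library sizes. Ratios of paralogs were tested by two-sided exact permutation tests. Alternatives were DESeq2 1.42.0, limma-voom (limma 3.58.1), sva 3.50.0, other scalings and filters, a marker term, each library left out and a replicate block. The script was tested on simulated data.

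Named were the inducible and constitutive lists, per comparison the 4 members with the smallest p, the 5 widest, the 5 narrowest and the 5 highest per kb, 3 co-chaperones or heat shock factors per genotype comparison, and Hsf1. Other genes described were chosen after their values were seen. Replicate numbers were checked for pairing by correlating deviations from group means. They ran from 0.172 to 0.678 between KO and WT males, 0.491 to 0.815 between KO females and KO males, and 0.131 to 0.821 between WT females and WT males, which was counted as paired. Between KO and WT females they ran from -0.399 to 0.690, which was not. Every library of replicate 1 had high and every library of replicates 3 and 4 low markers of other cell types. The values -0.399 and 0.172 came from replicate 2, with 1 library of each kind. Pairing by number and shared marker levels therefore cannot be told apart. Promoter windows come from RefSeq (GRCm38.p6), matched by symbol for 65 of 79 members.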

Additional observations from a re-analysis of the deposited data

Results flagged for a closer look

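Within a label group of 4, a library was marked where its gap to the nearest other library was large for the range of the group by Dixon's test. This met 21 of 126 groups, which are 38 named genes and 4 ratios of relatives in the 3 label groups of that size. Chance marks about 1 in 20 groups, but many of these genes were named for their wide spread or as inducible with the data known, so the count is a description. Of the marks 6 were in KO male 4 and 11 in WT male 3.

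KO male 4 stood apart from KO males 1 to 3 with 12.3 CPM of Hspa1a (others 0.449 to 0.865), 10.3 of Hspa1b (0.374 to 0.724), 40.2 of Hsp90aa1 (14.1 to 16.2), 29.3 of Dnajb1 (7.19 to 9.46), 27.8 of Hspb1 (10.4 to 13.3) and 30.6 of Ahsa2 (21.2 to 22.3). WT male 3 stood apart from the other WT males with 22.6 CPM of Hspa1a (0.261 to 0.871), 24.9 of Hspa1b (0.140 to 0.991), 132 of Hsph1 (6.40 to 24.0), 88.0 of Hsp90aa1 (8.37 to 15.9) and 172 of Dnaja1 (15.7 to 33.8). The same library had 40.6 CPM of Dnajb1 (4.93 to 9.82), 445 of Bag3 (145 to 195), 277 of Dnajb4 (127 to 144), 171 of Hspa4 (73.8 to 86.02), 169 of Chordc1 (41.1 to 57.0) and 71.5 of Ahsa2 (21.8 to 26.8).

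Elsewhere, KO male 3 had 36.5 CPM of Hspa12a (21.9 to 24.0 in the other KO males) and 63.6 of Hspa8 (79.0 to 80.7). KO female 4 had 9.98 CPM of Dnajc2 (8.68 to 8.79 in the other KO females). WT male 1, the WT male library with high markers of other cell types, had 12.3 CPM of Hspa12b (0.684 to 1.80 in the other WT males).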

How the results depend on the processing

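Under edgeR no member was called in any of the 5 comparisons, with each library left out, with the replicate block or with the marker term. That term is the mean level of the other cell types' markers. With it edgeR's common dispersion, its estimate of the spread between libraries, was 0.0378, against 0.163 in the main fit. The main tests thus carried a wider spread. Between KO females and KO males 15 genes were called with the term. The replicate block, which also covered the ratios of relatives as an alternative chosen after seeing the data, changed no call. With the block 57 members were lower in KO than WT females and 42 in males, where 53.6% and 54.3% of all genes were higher. Hspb6 then had -0.87 between KO females and KO males. DESeq2 called 1 member, Hspb6, between KO females and KO males. Directions turned with 1 library left out for several inducible genes in males, for Ahsa2 and Chordc1 and for most ratios, those of KO and WT females included. Leaving out KO male 4 and WT male 3 together was chosen after seeing the data.

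Without both libraries, 21 members were lower in KO than WT males and 20 in WT females than WT males (19 to 52 and 20 to 52 with 1 library left out). Of all genes 51.0% and 52.4% were higher in these comparisons without both. KO minus WT male log2 fold changes without both were 0.47 for Hspa1a, 0.22 for Hspa1b, 0.044 for Hsph1, 0.42 for Hsp90aa1 and 0.21 for Dnaja1. With all 15 libraries, limma-voom gave 1.01 for Hspa1a, 1.12 for Hspa1b and 0.15 for Hsp90aa1. By edgeR with 1 library left out the 5 genes ran from -3.14 to 2.90, -3.70 to 2.80, -1.71 to 0.54, -0.997 to 0.93 and -1.15 to 0.56, and from -0.75 to 0.012 for Ahsa2 and -0.88 to 0.024 for Chordc1. Dnaja1 in WT females minus WT males was 0.11 without both (-1.58 to 0.11).

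Differences of log2 ratios without both were, for Hspa1a plus Hspa1b over Hspa8, 0.73 between KO females and KO males and 0.19 between WT females and WT males. For Hsp90aa1 over Hsp90ab1 they were 0.10 (KO and WT males), 0.065 (KO sexes) and 0.15 (WT sexes), for Hsph1 over Hspa4 0.19 and 0.20 (KO and WT males, WT sexes), and for Dnaja1 over Dnaja2 0.30 and 0.15. In libraries with low markers, KO and WT males differed by 0.96 for Hspa1a plus Hspa1b over Hspa8 and 0.20 for Hsph1 over Hspa4. With 1 library left out, the first ratio ran from -0.56 to 1.24 (KO and WT females), -1.37 to 1.004 (KO and WT males), -0.85 to 0.73 (KO sexes) and -1.88 to 0.19 (WT sexes). The Hsp90 ratio ran from -0.12 to 0.17, -0.46 to 0.35, -0.39 to 0.065 and -0.65 to 0.15. Hsph1 over Hspa4 ran from -0.57 to 0.50 (KO and WT males) and -0.99 to 0.20 (WT sexes), and Dnaja1 over Dnaja2 from -0.40 to 0.050 (KO and WT females), -0.51 to 0.50 (KO and WT males) and -0.86 to 0.15 (WT sexes). Apart from leaving out libraries, the cause was not tested. Of 31 named fold changes 8 turned under some alternative, as did 13 of 16 ratio comparisons.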
